A study of Mus musculus with 9 samples.

Results

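The heat shock response and the unfolded protein response are the programmes by which a cell adds chaperones when proteins misfold. In the cytosol, misfolded protein occupies HSP70 and HSP90 chaperones, which frees the heat shock factor Hsf1 to bind heat shock elements in the promoters of chaperone genes. In the endoplasmic reticulum, the sensors Ern1 (IRE1), Eif2ak3 (PERK) and Atf6 act through Xbp1, Atf4 and the cleaved Atf6 protein on genes for luminal chaperones, disulfide isomerases and degradation factors, many of which carry an endoplasmic reticulum stress element. Cells that secrete much protein, such as plasma cells, express the reticulum genes at high levels, and T cells use the same machinery when they make cytokines and surface receptors. The 31 genes described here were chosen by symbol, out of 54146 genes in the deposited table. They are 12 cytosolic and mitochondrial heat shock genes, 15 genes of folding and degradation in the endoplasmic reticulum and 4 regulators of the unfolded protein response, and all 31 passed the filter on low counts.

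The cells were T follicular helper (Tfh) cells, CD4 T cells that help B cells in germinal centres, sorted from mouse Peyer's patches, the lymphoid follicles of the small intestine. One group carried 1 mutant allele of Tgfbr1, a subunit of the TGF-beta receptor (genotype WT/mut, n = 5 libraries, replicates 6 to 10), and the other held wild-type littermates (WT, n = 4, replicates 1, 3, 4 and 5). The sort took cells positive for CD4, CXCR5 and PD1, and libraries of messenger RNA were amplified from 300 pg of RNA each by the SMART-Seq method, which here kept no strand. The labels name no treatment, age, sex, litter, sorting day or mutation. Whether every library is a separate animal is not stated, so the p-values refer to the spread from library to library, which may be technical. They also name no promoter or Cre that would limit the allele to T cells.

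Total expected counts per library lay between 29488800 and 43872700, and 15521 genes were tested. Tgfbr1 (chromosome 4, 47353222 to 47414931 on GRCm38) stood at 73.6 ± 16.5 CPM (counts scaled to a common library size; SD, n = 5) in WT/mut and 77.0 ± 20.2 CPM (SD, n = 4) in WT libraries, and edgeR gave a log2 fold change of -0.066 ± 0.213 (SE; adjusted p = 0.921). Its total level therefore does not check the labels, since a mutant allele can be transcribed. All 8 markers that define Tfh cells were present, with Pdcd1 and Cxcr5 highest in both groups. Icos (749 to 922 CPM in WT/mut, 1038 to 1226 CPM in WT) and Il21 (399 to 531 and 532 to 772 CPM) did not overlap between the groups, with edgeR adjusted p of 0.0721 and 0.142. These were 2 of the 8 markers, against 4.46% of all tested genes, and were named with their values in view. The sum of the 8 markers lay from 6074 to 6391 CPM in WT/mut and from 6148 to 7523 CPM in WT libraries. Libraries that stood apart were WT/mut 7, with 30143 detected genes against 17904 to 20264 in the others, WT/mut 9, with 10.1% mitochondrial counts, and WT 1, with an immediate early gene sum of 3296 CPM against 2303 to 2372 CPM in the other WT libraries. All 16 within-group pairs of libraries differed by more than independent sampling of reads would give (mean chi-square per gene 28.0 to 224). Reads copied from the same molecule are not independent, so these values cannot tell amplification from other differences.

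The promoter sequences come first, because they show the elements by which the 2 stress programmes are defined. RefSeq windows of GRCm38.p6, from 250 bases before to 50 bases after the annotated start, were matched for 26 of the 31 genes. These genes had 31 windows. A gene was counted if any of its windows held a match, while the shares given for all windows count single windows. The heat shock element was searched on both strands as GAANNTTC or TTCNNGAA, 2 forms that overlap when 3 units follow each other. It was present in 8 of the 9 heat shock genes with a window (Bag3, Dnaja1, Hspa1a, Hspa1b, Hspb1, Hspd1, Hspe1 and Hsph1), in 0 of 13 reticulum genes and in 0 of 4 regulators, against 15.1% of all 32851 windows. The matches of the neighbours Hspd1 and Hspe1 are the same bases, read on opposite strands, so they are not separate elements. The printed stretches belong to Hspa1a and Hspa1b, which varied most between libraries, to Hsph1, which had the lowest p of the heat shock genes, and to Hspe1, which has several units in a row. Hsph1 also has 3 units in a row, but after its annotated start and outside the printed stretch. The capitals mark the element, read 5′ to 3′ on the gene's strand.
Hspa1a, chr17:34972213-34972300, minus strand: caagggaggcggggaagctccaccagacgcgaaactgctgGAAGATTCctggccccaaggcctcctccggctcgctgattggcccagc
Hspa1b, chr17:34959295-34959382, minus strand: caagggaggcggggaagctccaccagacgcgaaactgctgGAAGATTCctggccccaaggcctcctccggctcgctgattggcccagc
Hsph1, chr5:149636351-149636380, minus strand: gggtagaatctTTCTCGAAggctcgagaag
Hspe1, chr1:55088053-55088082, plus strand: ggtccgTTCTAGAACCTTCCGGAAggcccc
The stretches of Hspa1a and Hspa1b are letter for letter the same, and 247 of the 250 bases before the starts of these neighbouring genes (98.8%) were identical.

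The endoplasmic reticulum stress element was searched on both strands as CCAAT and CCACG with 9 bases of any kind between them. It occurred in 6 of the 13 reticulum genes with a window (Calr, Creld2, Dnajc3, Hsp90b1, Hspa5 and Pdia6), in 0 of 9 heat shock genes and in 39 of all windows (0.119%). Its second form, ATTGG and CCACG with 1 base between them, occurred in Dnajb11 and Herpud1 and in 0.0365% of all windows. The sequences of the main reticulum chaperones and of Pdia6 are printed since they show both boxes, with capitals from the first base of one box to the last base of the other.
Hspa5, chr2:34772020-34772048, plus strand: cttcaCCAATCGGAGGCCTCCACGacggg
Hsp90b1, distal, chr10:86705633-86705661, minus strand: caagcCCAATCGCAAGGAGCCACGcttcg
Hsp90b1, proximal, chr10:86705528-86705556, minus strand: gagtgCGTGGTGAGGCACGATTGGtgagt
Pdia6, chr12:17266486-17266514, plus strand: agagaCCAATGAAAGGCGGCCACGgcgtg
The proximal copy of Hsp90b1 runs on the opposite strand. The amino acid response element, searched as TGATGNAA, occurred in Herpud1 and Trib3 and in 3.97% of all windows, and TGACGTGG, a core that Xbp1 and Atf6 can bind, was found in none of the members' windows and in 0.676% of all windows. A match describes letters only, and binding was not measured.

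None of the 31 genes differed between the genotypes at an edgeR adjusted p under 0.05, against a background of 0.122% of tested genes called (19 of 15521; 0.0322% higher and 0.0902% lower in WT/mut). At an unadjusted p under 0.05 there were 5 members (16.1%), against 12.2% of all tested genes, and DESeq2 called 1 of the 31, against 283 of 15467 genes (1.83%) in its own fit. These 5 were Hsph1, Hsp90ab1 and Hsp90b1 with higher means in WT/mut (background in that direction 5.69%) and Dnajb9 and Herpud1 with lower means (background 6.46%). The log2 fold changes, WT/mut over WT, ran from -0.43 for Herpud1 to 0.87 for Hspb1, with a median of 0.054 against 0.0015 over all tested genes. The estimate was positive for 17 members and negative for 14, against 49.8% negative among all tested genes. The 95% interval lay within 1 log2 unit of 0 for 26 of the 31 and within 0.5 for 14.

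**Figure D1:**
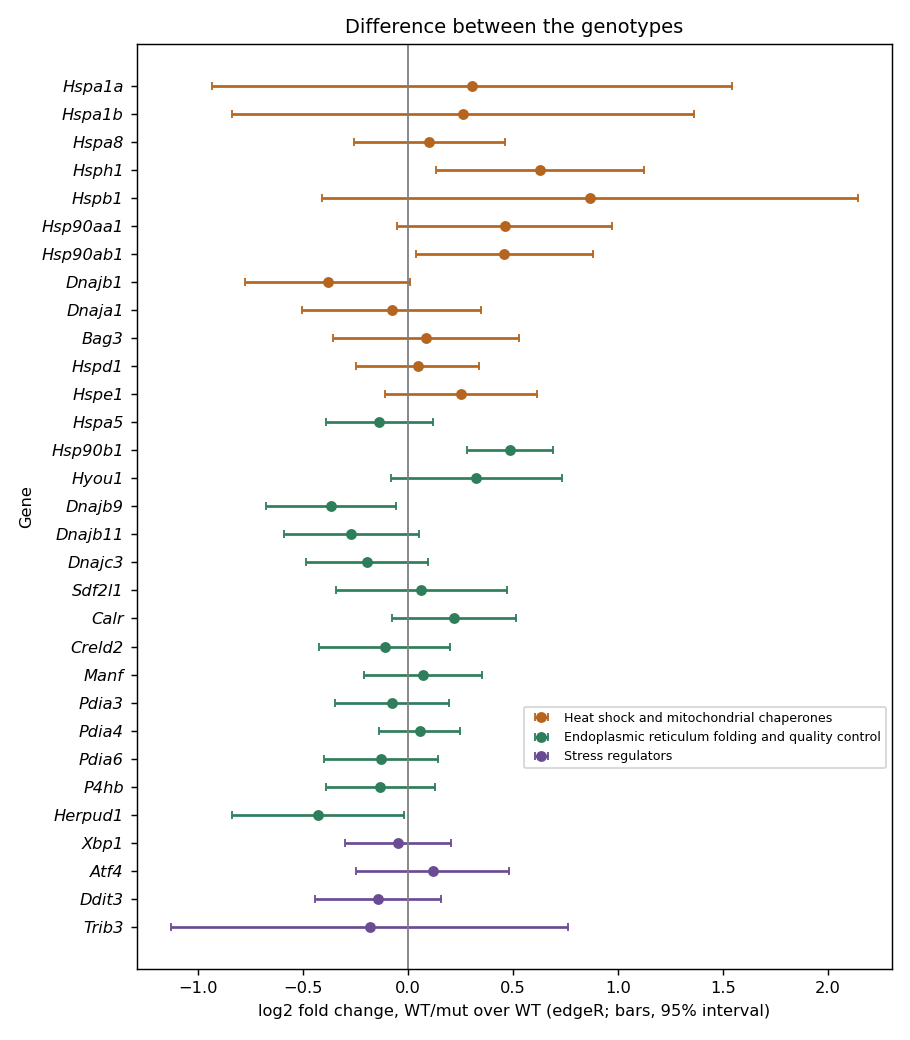
Log2 fold change of each of the 31 genes, WT/mut over WT (points, edgeR estimate; bars, 95% interval), coloured by role. Most intervals cross 0. That of Hsp90b1 (0.28 to 0.69) is short and lies above 0, while those of Hspa1a, Hspa1b and Hspb1 are the widest.

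Ranked per kilobase of annotated exon, the WT cells held most RNA of Hspa8, the constitutive HSP70, at 430.4 ± 95.8 CPM per kb (SD, n = 4). Hspa5 (BiP), the HSP70 of the endoplasmic reticulum, came next at 375 ± 58.8 CPM per kb, followed by Pdia3, an isomerase for glycoproteins, at 329.8 ± 50.9 and Hsp90ab1, the constitutive cytosolic HSP90, at 284 ± 83.3 CPM per kb. The ranges of these 4 genes over the WT libraries overlapped (294 to 511, 313 to 454, 275 to 390.2 and 201 to 398 CPM per kb), so their order is not resolved by this spread. Calr, the lectin chaperone calreticulin, stood at 201 ± 41.5 CPM per kb and Hspa1b at 169 ± 96.6 CPM per kb. At the low end were Dnajb9 at 9.12 ± 1.37, Trib3 at 2.31 ± 1.46 and Hspb1 at 0.905 ± 0.402 CPM per kb, of which Hspb1 is a small heat shock protein. The order was set with the exon length of GENCODE M21, which can differ from the transcripts used by these cells.

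**Figure D2:**
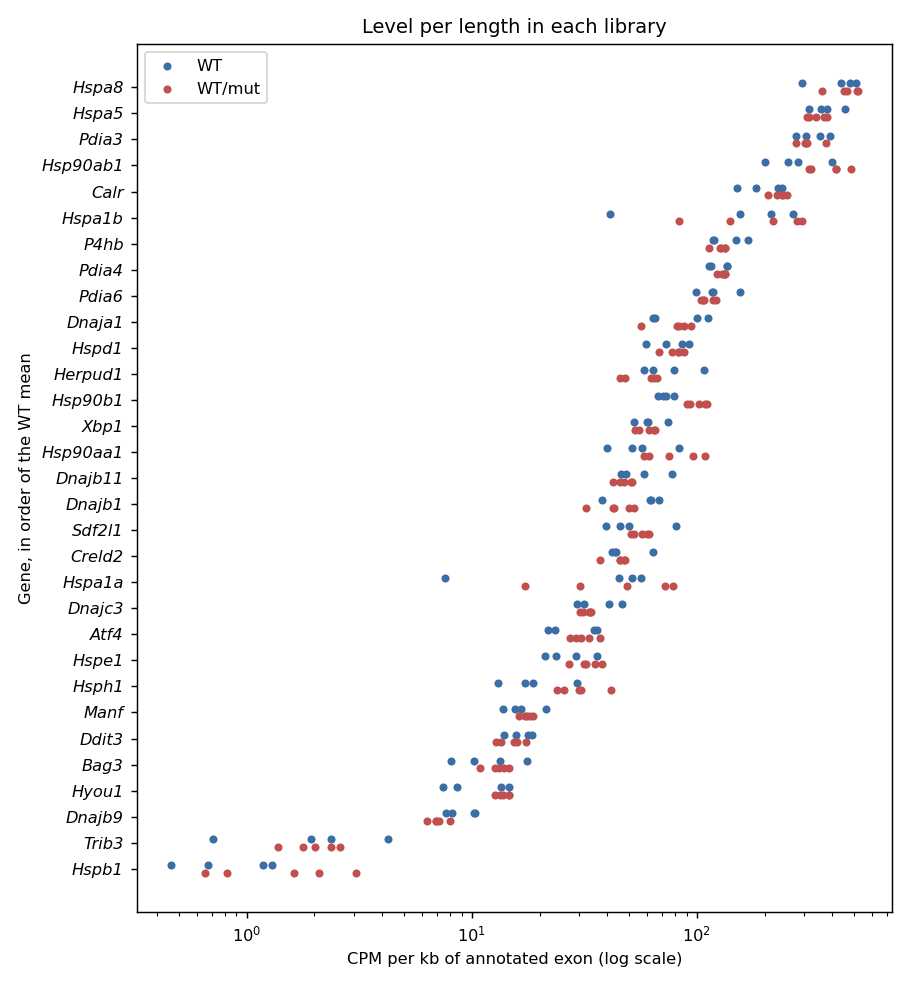
Level of each gene per kb of annotated exon in every library (points; log axis), in order of the WT mean. The points of the 2 genotypes lie on top of each other for most genes, and the WT means run from 430.4 for Hspa8 to 0.905 for Hspb1.

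Among the heat shock genes, 10 of 12 had a positive log2 fold change, with a median of 0.26 against 0.0015 over all genes, and none was called. In WT 1, 7 of the 12 genes had their lowest value of all libraries, against 21.9% of tested genes at 20 CPM or more. Without WT 1, 7 of 12 were positive and the median was 0.085. WT 1 was also the library with the highest immediate early gene sum. With that sum as a covariate 8 of the 12 genes were positive, and its part in these values was not tested otherwise. The summed level of the 12 genes was 5533 ± 634 CPM in WT/mut against 4862 ± 1081 CPM in WT libraries, and the ranges (4497 to 6055 and 3894 to 6227 CPM) overlapped.

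Hsph1 (HSP110; chromosome 5, 149614287 to 149636376), a nucleotide exchange factor that releases clients from HSP70, was measured at 218, 301, 187, 222 and 174 CPM in WT/mut 6 to 10. The WT libraries 1, 3, 4 and 5 held 136, 214, 95.2 and 125 CPM. WT 3 lay within the WT/mut range and the other 3 WT libraries below it. The means were 221 ± 49.5 (n = 5) and 143 ± 50.7 CPM (n = 4), a log2 fold change of 0.63 ± 0.23 (SE) with an edgeR unadjusted p of 0.0175 and an adjusted p of 0.329. Leaving out 1 library at a time gave 0.48 to 0.89.

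Hsp90ab1 and Hsp90aa1, the constitutive and the stress-inducible cytosolic HSP90, hold kinases and steroid receptors in an activatable fold. Hsp90ab1 (chromosome 17, 45567775 to 45573271) stood at 1248, 1444, 945, 1241 and 966 CPM in WT/mut 6 to 10 and at 604, 1195, 842 and 761 CPM in WT 1, 3, 4 and 5. WT 3 again reached into the WT/mut values, and the other WT libraries lay below all of them. The log2 fold change was 0.46 ± 0.19 (SE; edgeR adjusted p = 0.383). Hsp90aa1 had a similar estimate of 0.46 ± 0.23 (adjusted p = 0.451), from 228 to 427 CPM in WT/mut against 157 to 328 CPM in WT libraries. Of its 50-base sequence words, 58.5% also occur in transcripts of other genes, so its expected count depends on how shared reads were divided. Hsp90ab1 and Hsp90aa1 were both lowest in WT 1, and without it their estimates were 0.33 and 0.32.

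**Figure D3:**
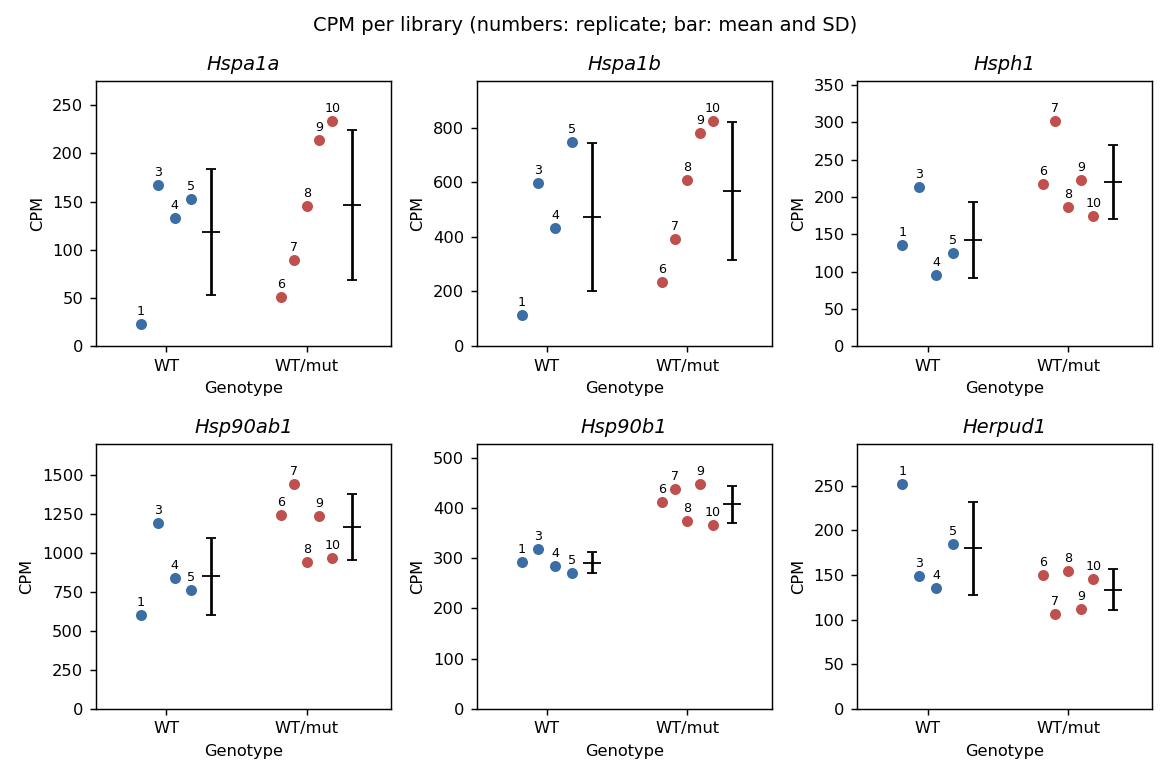
CPM of selected genes in each library (points numbered by replicate; bar, mean and SD) for both genotypes. The WT/mut points of Hsp90b1 all lie above the WT points, while those of the other genes overlap.

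The inducible HSP70 genes Hspa1a and Hspa1b (chromosome 17, 34969190 to 34972156 and 34956436 to 34959238, both on the minus strand) had the widest range of the 31 genes over the libraries. Hspa1a read 51.1, 89.7, 146, 213 and 233 CPM in WT/mut 6 to 10 and 22.6, 167, 133 and 152 CPM in WT 1, 3, 4 and 5. Hspa1b read 234, 393, 608, 779.5 and 823 CPM in the same WT/mut libraries and 115, 598, 434 and 747 CPM in the WT ones. WT 1 was lowest for both, followed by WT/mut 6 and WT/mut 7, and the groups overlapped throughout. The spread over all 9 libraries was 10.3-fold for Hspa1a and 7.13-fold for Hspa1b. In within-group spread they ranked 30 and 45 from the top among 7425 tested genes at 20 CPM or more. The genotype estimates were 0.30 ± 0.56 (SE; edgeR adjusted p = 0.849) and 0.26 ± 0.50 (adjusted p = 0.855), and both turned negative without WT 1, to -0.037 and -0.060.

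The pair moved together from library to library: Hspa1a made up 16.4% to 23.5% of their summed level in every library, while the sum went from 138 CPM in WT 1 to 1056 CPM in WT/mut 10, a 7.65-fold range. Their counts are not independent measurements, since 58.8% of the 50-base words of Hspa1a also occur in Hspa1b. Added together, the 2 genes gave a log2 fold change of 0.27 ± 0.51 (adjusted p = 0.852), an alternative chosen after the data were seen. The printed stretches of their promoters hold the same heat shock element, as shown above.

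Hspa8 (chromosome 9, 40800984 to 40810087) did not show this spread, at 1984 ± 279.6 CPM in WT/mut against 1851 ± 412 CPM in WT (log2 fold change 0.10 ± 0.16, adjusted p = 0.826). Of its words 52.7% are shared, mainly with AC092404.2 (709 ± 108 and 659.9 ± 172 CPM) and Gm26825 (395 ± 65.7 and 365 ± 91.5 CPM). Summed over all 3, the level was 3088 ± 448 CPM in WT/mut against 2876 ± 653 CPM in WT libraries. Dnajb1 and Dnaja1 are J-domain cochaperones, which deliver clients to HSP70. Dnajb1 gave 160.5, 136, 103, 168 and 137 CPM in WT/mut 6 to 10 against 199, 216, 122 and 198 CPM in WT 1, 3, 4 and 5, so that WT 4 alone lay within the WT/mut values. Its log2 fold change of -0.38 ± 0.18 (SE) did not pass (edgeR adjusted p = 0.416). Dnaja1 was at 697 ± 123 and 736 ± 211 CPM (-0.079 ± 0.194). With the plasma cell covariate described further on, these estimates were 0.19 and 0.11. Of the words of Dnaja1 28.8% are shared, in part with Smu1, which overlaps it on the opposite strand.

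The mitochondrial chaperonin Hspd1 (HSP60) stood at 211 ± 19.9 CPM in WT/mut against 204 ± 38.9 CPM in WT libraries, a log2 fold change of 0.045 ± 0.133. Its partner Hspe1 (HSP10), transcribed from the same promoter region in the other direction, stood at 48.3 ± 6.01 and 40.5 ± 9.76 CPM (0.25 ± 0.16). The 2 genes overlap head to head, and without strand their reads in the overlap cannot be told apart. Of the words of Hspd1 44.8% are shared with other transcripts. Bag3, a cochaperone of selective autophagy, was at 33.5 ± 3.60 and 31.6 ± 10.5 CPM (0.084 ± 0.202). Hspb1 was low, at 1.70 ± 1.02 and 0.933 ± 0.414 CPM, and its estimate of 0.87 ± 0.58 is the least precise of the 31. Of its words 51.6% are shared with other transcripts.

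Among the 15 reticulum genes, 6 had a positive and 9 a negative log2 fold change, with a median of -0.11, and none was called. WT 1 was the highest of all libraries in 10 of the 15, against 30.7% of tested genes at 20 CPM or more. Without it, 9 of 15 were positive, and the median was 0.018. The summed level was 5353 ± 198 CPM in WT/mut against 5491 ± 507 CPM in WT libraries.

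Hsp90b1 (GRP94; chromosome 10, 86690209 to 86705509), the HSP90 of the endoplasmic reticulum, which folds integrins and Toll-like receptors, was the only member whose groups did not overlap (1 of 31, 3.23%, against a background of 4.46% of tested genes). WT/mut 6 to 10 held 413, 439, 375, 448 and 366 CPM. WT 1, 3, 4 and 5 held 293, 319, 285 and 269.9 CPM. The lowest WT/mut library thus lay above the highest WT library. The means were 408 ± 36.9 and 292 ± 20.3 CPM, a log2 fold change of 0.49 ± 0.09 (SE; 95% interval 0.28 to 0.69). The edgeR unadjusted p was 0.000292 and the adjusted p 0.0936, which misses the threshold, and DESeq2 gave an adjusted p of 0.000188. The estimate stayed between 0.45 and 0.53 when any 1 library was left out (adjusted p 0.0987 to 0.222). Of its words 10.0% are shared with other transcripts, mainly with a pseudogene on the opposite strand, which held 4.99 CPM in WT/mut against 4.40 CPM in WT libraries.

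Markers of plasma cells, which also express reticulum genes, were measured in the same libraries. The summed level of 8 defining genes, of which Igha, Igkc and Jchain were highest, was 418 to 1395 CPM in WT/mut against 92.7 to 395 CPM in WT libraries (exact two-sided permutation p = 0.00794, the smallest that 126 splits allow; adjusted over 10 library measures, 0.0397). Of the 7 that were tested 6 had a positive log2 fold change and 0 were called. The sums of the full list of 15 plasma cell genes overlapped between the groups, at 2295 to 3309 CPM in WT/mut and 2123 to 2680 CPM in WT. Ighm, the most abundant gene that the full list adds, held 1438 to 1959 CPM in WT/mut and 1740 to 2313 CPM in WT. Of the other added genes, Slamf7 (-0.29) and Xbp1 (-0.050) had negative estimates. Eaf2 (1.67), Prdm1 (0.94) and Derl3 (0.53) had positive ones, and Fkbp11 was not tested. Tnfrsf17 was at 0 in all WT libraries and in WT/mut 8, 9 and 10, and Sdc1 was at 1.73 ± 1.12 and 2.00 ± 1.72 CPM. With the plasma cell sum as a covariate, the estimate of Hsp90b1 was 0.42 ± 0.19 (adjusted p = 1.00), and without WT/mut 7 and WT/mut 9 together, an alternative chosen after the data were seen, it was 0.40 (adjusted p = 0.458). Red cell markers, at 401 to 869.6 and 98.5 to 282 CPM, also separated the genotypes (exact permutation p = 0.00794, adjusted 0.0397). The sums of the B cell, myeloid and epithelial lists did not pass (exact permutation, adjusted p = 0.278, 0.529 and 0.476), and neither did those of the Tfh and immediate early lists (0.106 and 0.179). The marker lists were chosen with earlier results of these data known. Their permutation p-values therefore describe the lists and are no independent evidence. In bulk libraries fewer cells of a type and less RNA per cell cannot be told apart. The plasma cell sum did not overlap between the groups, so the fit with this covariate cannot tell that sum apart from genotype. The part of plasma cells or other cells in the Hsp90b1 values was not tested.

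Hspa5 (chromosome 2, 34771970 to 34777547), the luminal HSP70 that holds the sensors inactive, read 1434, 1336, 1545, 1300.3 and 1595 CPM in WT/mut 6 to 10 and 1918, 1508, 1323 and 1597 CPM in WT 1, 3, 4 and 5, with overlapping groups. Its log2 fold change was -0.14 ± 0.12 (SE; edgeR adjusted p = 0.634), which became -0.028 without WT 1, 0.24 with the plasma cell covariate and 0.092 with the immediate early covariate. Hyou1, a HSP110 relative that works with Hspa5, had an estimate of 0.32 ± 0.18, with 91.8 to 106 CPM in WT/mut against 54.0 to 106 CPM in WT libraries. The lectin chaperone Calr was at 672 ± 49.9 and 577 ± 119 CPM (0.22 ± 0.13). Without WT 1 these estimates were 0.18 for Hyou1 and 0.11 for Calr.

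The lumenal J-domain cochaperones had negative estimates. Dnajb9, a regulator of IRE1, read 18.3, 16.1, 17.7, 20.4 and 17.6 CPM in WT/mut 6 to 10 against 26.1, 19.7, 20.8 and 26.4 CPM in WT 1, 3, 4 and 5. Only WT/mut 9 lay above the lowest WT library, and its log2 fold change was -0.37 ± 0.14 (SE; edgeR adjusted p = 0.349). Dnajb11 and Dnajc3 stood at -0.27 ± 0.15 and -0.20 ± 0.13, and both were highest in WT 1 (251 and 239 CPM). Without that library they were -0.087 and -0.063. Herpud1, which brings misfolded protein to the degradation complex, read 149.8, 106, 155, 112 and 146 CPM in WT/mut against 252, 149, 136 and 185 CPM in WT libraries. The WT value of 252 CPM came from WT 1, and the groups overlapped. The log2 fold change of Herpud1 was -0.43 ± 0.19 (adjusted p = 0.391), and -0.22 without WT 1.

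The disulfide isomerases lay close together. Pdia3 was at 981 ± 115 and 1035 ± 159.7 CPM (-0.078 ± 0.123), Pdia4 at 312 ± 10.2 and 301 ± 30.7 CPM (0.054 ± 0.088), Pdia6 at 418 ± 28.5 and 457 ± 90.2 CPM (-0.13 ± 0.12) and P4hb at 363 ± 23.2 and 398 ± 71.2 CPM (-0.13 ± 0.12). The estimate of Pdia4 was the most precise in the group. Sdf2l1, Creld2 and Manf, small luminal proteins of stressed cells, had estimates of 0.062 ± 0.186, -0.11 ± 0.14 and 0.071 ± 0.128, and all 3 were highest in WT 1.

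**Figure D4:**
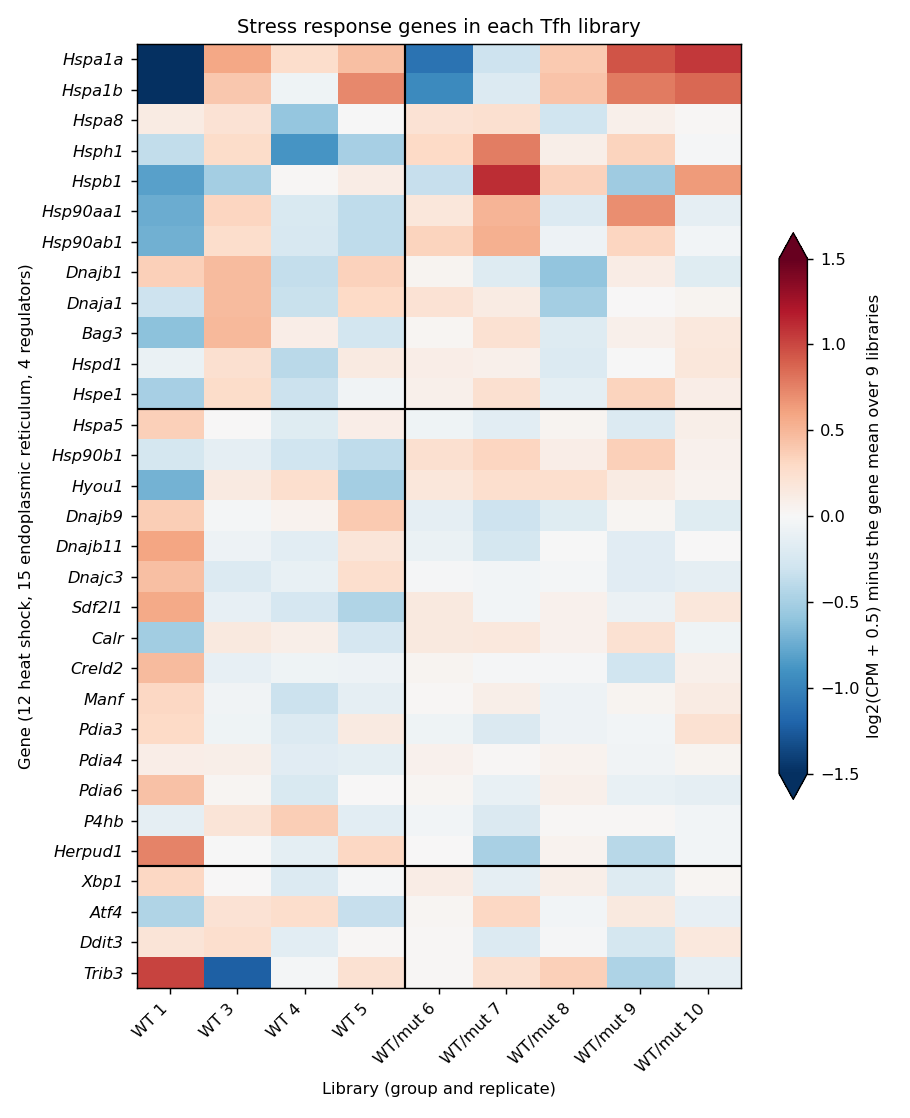
Log2(CPM + 0.5) of each gene minus its mean over the 9 libraries, WT on the left and WT/mut on the right of the line. WT 1 stands out, with low values in many heat shock genes and high values in many reticulum genes.

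The regulators differed little. Xbp1, the factor that IRE1 activates by splicing, was at 212, 179, 208, 172 and 199.6 CPM in WT/mut 6 to 10 and at 242, 197, 171 and 194 CPM in WT 1, 3, 4 and 5. Its log2 fold change was -0.050 ± 0.115 (SE; edgeR adjusted p = 0.886). Gene counts do not separate its spliced and unspliced forms, and Xbp1 is also on the broader plasma cell list. Atf4, whose translation PERK raises, was at 74.1 ± 8.86 and 68.3 ± 17.4 CPM (0.12 ± 0.17). Ddit3 (CHOP), which overlaps Mars on the opposite strand, was at 25.6 ± 3.11 and 28.3 ± 3.61 CPM (-0.14 ± 0.14). Trib3, a CHOP target, was low and variable, at 4.31 ± 1.03 and 4.90 ± 3.10 CPM (-0.18 ± 0.43).

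**Figure D5:**
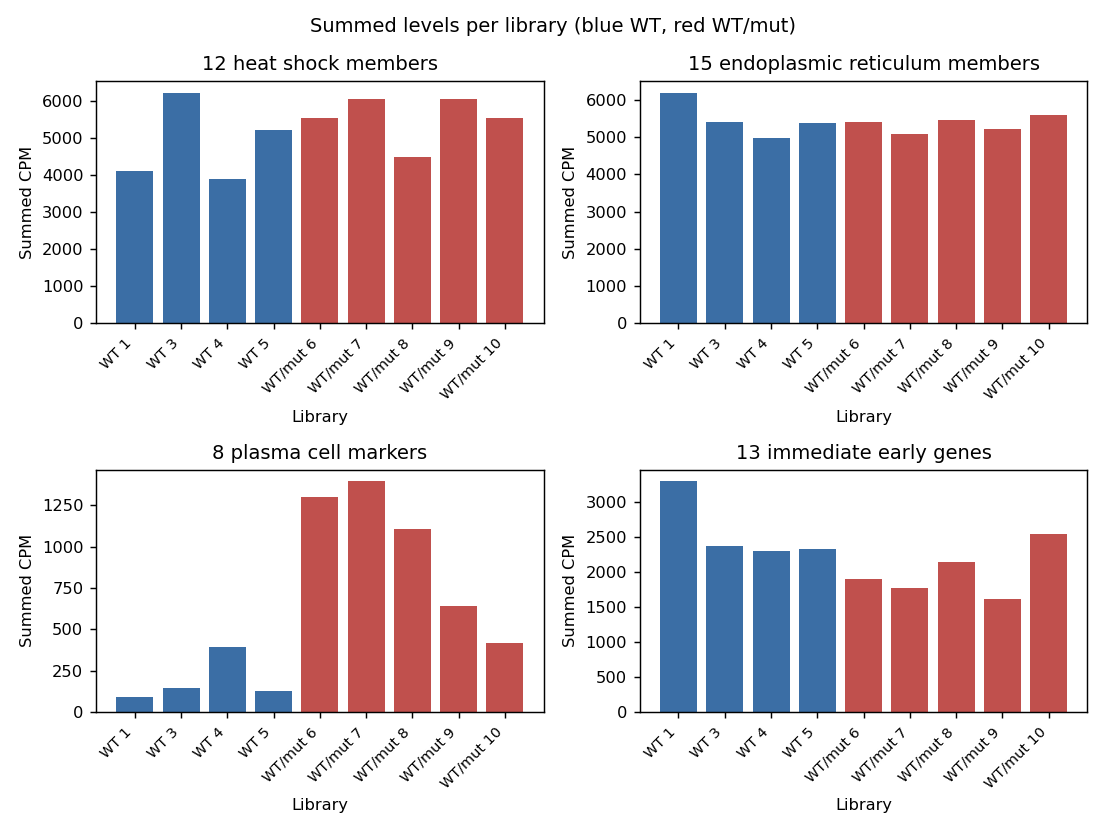
Summed CPM of the heat shock genes, reticulum genes and of plasma cell markers and immediate early genes, one bar per library, blue for WT and red for WT/mut. The reticulum sum of WT 1 (6197) is the highest of all libraries, while its heat shock sum (4105) is the second lowest.

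The range of single WT libraries, highest over lowest, exceeded the fold between the group means in 30 of 31 genes (96.8%, the exception being Hsp90b1), against 94.98% of 7425 tested genes at 20 CPM or more. For the WT/mut libraries it did so in 27 (87.1%), against 86.7%, so these shares were near the background. The coefficient of variation was higher in WT than in WT/mut for 29 of 31 members (93.5%), against 75.3% of these 7425 genes. Without WT 1 these shares were 74.2% and 58.7%. WT 1 was the highest or lowest library in 22 of 31 members (71.0%), against 52.6% of those genes.

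Of 120 further genes of the same pathways, 113 were tested. Of these 46 had a positive log2 fold change (40.7%, against 50.2% of all tested genes) and 67 a negative one. Against 0.122% of all tested genes called, 1 of the 113 was, Mlec. It encodes malectin, a lectin that binds glucosylated glycans on new glycoproteins, and stood at 184 ± 9.42 CPM in WT/mut against 110.4 ± 14.6 CPM in WT libraries (chromosome 5, 115142981 to 115158179). The edgeR estimate was 0.73 ± 0.10 (SE; adjusted p = 0.0321), and the estimate stayed between 0.67 and 0.83 when any 1 library was left out. The adjusted p was under the threshold in 1 of these 9 fits (without WT 4) and lay between 0.0583 and 0.0927 in the others. With the 3 covariates the estimate was 0.50 to 0.73 and was not called, in fits that called 0 or 1 genes in all. No gene of the other lists was called. The 5 genes that set or restrain the heat shock response all had negative estimates, against 49.8% of all tested genes. Among them were Hsbp1, a negative regulator of Hsf1, at -0.31 ± 0.14, and Stub1, a ubiquitin ligase for chaperone clients, at -0.25 ± 0.15. Hsf1 stood at -0.19 ± 0.16 and, like Hsbp1 and Stub1, was highest in WT 1. Hsf2 (4.24 and 4.69 CPM) and Hsf4 (0.944 and 1.58 CPM) were low. In the cytosol Dnajb2 and St13, both cochaperones of HSP70, stood at 0.39 ± 0.13 and 0.30 ± 0.11 (adjusted p 0.321 and 0.340). The chaperonin subunits Cct4 and Cct3 stood at 0.17 ± 0.09 and 0.14 ± 0.09, and the mitochondrial cochaperones Grpel1 and Dnaja3 at -0.20 ± 0.12 and -0.18 ± 0.12. Of the stress sensors, Eif2ak4 (GCN2) stood at 0.49 ± 0.16 (adjusted p = 0.291), Atf6 at 0.33 ± 0.16 and Ern1, at 4.72 and 6.86 CPM, at -0.54 ± 0.39. Ppp1r15a (GADD34), which reverses the translational block of PERK, was at 79.9 ± 25.2 and 129 ± 37.4 CPM (-0.69 ± 0.24, adjusted p = 0.321), and the cystine transporter Slc7a11 was low at 1.57 ± 1.49 and 0.621 ± 0.436 CPM. Of 15 genes of translocation into the reticulum, 10 had a negative estimate (49.8% of all tested genes) and 5 of them an unadjusted p under 0.05 (6.46% of all tested genes in that direction). Ssr4 (-0.215 ± 0.080) and Sec63 (-0.37 ± 0.14) had the lowest p, and the other 3, Spcs1, Spcs2 and Srprb, were highest in WT 1. In the degradation list Edem2 and Derl2 were lowest in p, at -0.415 ± 0.166 and -0.435 ± 0.188 (adjusted p 0.366 and 0.391). Both were highest in WT 1, and without it the estimates were -0.19 and -0.18. Without WT 1 those of Stub1, Grpel1, Hsbp1 and Ppp1r15a also shrank, to -0.077, -0.064, -0.18 and -0.46.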

How the data were processed

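Per the submitters' processing notes, the deposited expected counts per gene were made with cutadapt 2.10, STAR 2.5.3 and RSEM 1.3.0 on mm10, and DESeq2 was used. The annotation behind the counts is not given in the labels. RSEM divides reads shared by near-identical genes by a model. Expected counts were rounded and tested in R 4.3.3 with edgeR 4.0.16 (robust quasi-likelihood F test, TMM factors, filterByExpr with a minimum count of 10 and total of 15, no covariate) on 15521 genes, with Benjamini-Hochberg adjustment over all of them and a threshold of 0.05. Standard errors were derived from the estimate and its F statistic. CPM use TMM-scaled library sizes. Library measures were compared by exact two-sided permutation over 126 splits. Totals were 29488800 to 43872700 per library. The kit adds no molecular identifiers, so copies of the same molecule count as separate reads and the totals can overstate the counting precision. Shared reads were assessed as 50-base words common to GENCODE M21 transcripts. The fit was run on counts simulated from its own estimates of spread. These hold no outlying libraries, and no result given here rests on them. The 31 genes, the pathway and marker lists were chosen with earlier results of these data known. The text names Tgfbr1, all 31 genes, called further pathway genes or else the 2 of lowest p per list, and the 3 highest defining markers of a list. Other genes, such as Sdc1, Tnfrsf17, Icos, Il21, Ern1 and Gm26825, were named with their values in view. Also run were limma-voom (limma 3.58.1), DESeq2 1.42.0, other scalings, no filter, 3 covariates and leaving out libraries. All value columns of the table were used.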

Additional observations from a re-analysis of the deposited data

Results flagged for a closer look

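Of 86 groups of 4 or 5 library values examined, 5 held a library far from the others of its group, about the share of 1 in 20 that chance gives, so these are values to look at and not results about the genes. Among the 31 genes only Creld2 was concerned, a luminal protein of stressed cells. In WT 1 it read 87.3 CPM, with 59.9 CPM in the next WT library, and in WT/mut 9 it read 50.6 CPM, with 62.0 CPM in the next WT/mut library. The immediate early gene sum of WT 1 was 3296 CPM, against 2372 CPM in the next WT library. WT/mut 7 had 30143 detected genes, against 20264 in the next WT/mut library, and WT/mut 9 had 10.1% mitochondrial counts, against 3.29%. WT 1 was also the library with the highest value in 10 of the 15 reticulum genes and the lowest in 7 of the 12 heat shock genes. Among tested genes at 20 CPM or more it was highest in 30.7% and lowest in 21.9%.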

How the results depend on the processing

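No paired analysis was possible because the groups share no replicate number (6 to 10 against 1, 3, 4 and 5). None of the 31 genes was called in any edgeR or limma-voom fit, and DESeq2 called 1 (Hsp90b1). The genes called over the whole table numbered 19, against 283 with DESeq2, 0 with the plasma cell covariate (448 at an unadjusted p under 0.05), 1 with the detected genes covariate, 1 with the immediate early covariate, 1 without WT/mut 7 and 9, and 2 to 23 with 1 library left out. The further pathway genes called were 2 with DESeq2 (against 1.83% of all genes in that fit), 0 with each of the 3 covariates, 0 without WT/mut 7 and 9 together, and 0 to 1 with 1 library left out. With 1 library left out, the median log2 fold change ran from -0.018 to 0.082 over all members, from 0.085 to 0.40 over heat shock genes and from -0.15 to 0.018 over reticulum genes. With the plasma cell covariate the median was 0.19 over all members and 0.14 over reticulum genes, and with the immediate early covariate the reticulum median was 0.092. The plasma cell covariate turned the sign of Atf4 (-0.43), Bag3 (-0.15), Calr (-0.16), Creld2 (0.100), Ddit3 (0.17), Dnaja1 (0.11), Dnajb1 (0.19), Dnajb11 (0.24), Dnajc3 (0.039), Herpud1 (0.12), Hspa5 (0.24), Hyou1 (-0.30), Pdia3 (0.44), Pdia6 (0.14), Trib3 (0.085) and Xbp1 (0.19). The immediate early covariate turned that of Atf4 (-0.15), Bag3 (-0.12), Calr (-0.019), Creld2 (0.18), Ddit3 (0.041), Dnajb11 (0.025), Hsp90aa1 (-0.046), Hspa5 (0.092), Pdia3 (0.13), Pdia6 (0.056), Trib3 (0.46) and Xbp1 (0.15). Trib3 was 0.12 with limma-voom, and Xbp1 was 0.0024 with the detected genes covariate and 0.040 without WT/mut 7 and 9. The cause of these turns was not tested. The plasma cell sum did not overlap between the groups, so the fit with that covariate cannot tell the sum apart from genotype. With 1 library left out the sign also turned for Bag3 (range -0.067 to 0.30), Creld2 (-0.17 to 0.058), Dnaja1 (-0.19 to 0.081), Hspa1a (-0.037 to 0.52), Hspa1b (-0.060 to 0.57), Hspa8 (-0.038 to 0.19), Hspd1 (-0.057 to 0.14), Manf (-0.0070 to 0.21), Pdia3 (-0.15 to 0.018), Pdia6 (-0.21 to 0.015), Sdf2l1 (-0.062 to 0.33), Trib3 (-0.49 to 0.29) and Xbp1 (-0.11 to 0.058). Of the 31 genes 8 kept their direction in all 18 settings. Depth limits Hspb1 and Trib3 most, both under 10 CPM in every library.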

Other observations

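Other genes of the reticulum were looked at after their values were seen. Uggt1, the glucosyltransferase that marks unfolded glycoproteins, ranged from 157 to 204 CPM in the 5 WT/mut libraries and from 104 to 144 CPM in the 4 WT libraries, a log2 fold change of 0.43 ± 0.12 (SE). Its edgeR adjusted p was 0.260, and DESeq2 called it. Sil1, the nucleotide exchange factor of Hspa5, stood at 22.8 ± 1.36 (SD) in WT/mut against 31.3 ± 5.65 CPM in WT, a log2 fold change of -0.46 ± 0.14 (adjusted p = 0.276). Atf3 and Chac1, targets of the integrated stress response, had no count in any WT library and were not tested. In WT/mut libraries they were at 0.627 ± 0.711 and 0.0847 ± 0.157 CPM, near the floor and with an SD above the mean. Of the 11 tested genes on the same list 6 had a positive and 5 a negative estimate, with a median of 0.0055.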
